A study of Mus musculus with 22 samples.

Results

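Transcript levels were described in granulocytic myeloid-derived suppressor cell (G-MDSC) isolates from mammary tumours of mice that received vehicle and no study drug. The isolates were taken as the samples titled Vehicle 1 to 4, V1 and V2, which were 6 of the 22 samples of the series. The other 16 samples came from mice given the histone deacetylase inhibitor entinostat, alone or with checkpoint antibodies, and are not analysed here. All 6 isolates came from female mice of the strain FVB-Neu-N, which carry the neu-N transgene and were 7 to 8 weeks old at implantation. Each mouse carried a tumour grown from 50000 NT2.5 cells, a line derived from a spontaneous mammary tumour, in the mammary fat pad. Dosing began 3 days after implantation and ran for 3 weeks. Vehicle mice were gavaged with 0.5% methylcellulose and received isotype antibodies from a PBS stock of 0.5 mg/mL, so the isolates come from vehicle-dosed and not from undosed animals. An anti-HER2 antibody was part of some experiments of this model, and the labels do not say whether it, or its isotype, was given here. Cells positive for the surface antigen Ly6G were captured magnetically from dissociated tumours over 2 column passes. The labels do not tie a sample to a single animal or culture, nor say what sets V1 and V2 apart from 1 to 4. The spread below is therefore the spread between these samples, which may be partly technical.

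G-MDSCs are cells of the neutrophil lineage that accumulate in tumour-bearing hosts and can restrain T cells through arginase, nitric oxide, prostaglandins, reactive oxygen and checkpoint ligands. Their maturation and release are driven by G-CSF through its receptor Csf3r, and their entry into tissue by CXC chemokines through Cxcr2. The calcium-binding proteins S100a8 and S100a9 form calprotectin, an abundant protein complex of the neutrophil cytosol. Transcripts were counted with the NanoString nCounter mouse myeloid panel, in which a pair of probes binds each messenger RNA and a fluorescent barcode is counted with no amplification. A level is given as a normalized count, the authors' scaled barcode count through 1 probe pair per gene. It does not grow with transcript length, but probe pairs differ in how well they bind, so an order of genes by level is an order of barcode counts.

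Promoters of 4 members are shown because these genes carry the level and the spread described below. S100a8 and S100a9 were the highest neutrophil genes of the isolates, and C1qb and C1qc, chains of complement C1q made mainly by macrophages, varied together and far more. Each sequence covers 250 bases before and 50 after the annotated start, 5′ to 3′ on the gene's own strand, from the RefSeq table for GRCm38.p6. Capitals mark matches to 5 motifs, each searched on both strands. The TATA box was searched as TATAAA. PU.1, a factor of the myeloid lineage, was searched by the core AGGAAG. C/EBP factors, which drive granulocyte genes, were searched as TTNNGNAA, and AP-1 as TGANTCA. The consensus of NF-kB was searched too. S100a8 lies at chr3:90668821-90669120 on the plus strand, S100a9 at chr3:90695672-90695971 on the minus strand, C1qb at chr4:136886151-136886450 on the minus strand and C1qc at chr4:136892865-136893164 on the minus strand.
S100a8: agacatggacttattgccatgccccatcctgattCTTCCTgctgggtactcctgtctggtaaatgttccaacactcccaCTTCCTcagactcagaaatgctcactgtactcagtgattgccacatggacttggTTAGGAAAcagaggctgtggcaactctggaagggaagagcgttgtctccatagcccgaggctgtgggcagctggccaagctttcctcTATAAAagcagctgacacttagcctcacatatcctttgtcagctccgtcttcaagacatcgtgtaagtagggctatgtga
S100a9: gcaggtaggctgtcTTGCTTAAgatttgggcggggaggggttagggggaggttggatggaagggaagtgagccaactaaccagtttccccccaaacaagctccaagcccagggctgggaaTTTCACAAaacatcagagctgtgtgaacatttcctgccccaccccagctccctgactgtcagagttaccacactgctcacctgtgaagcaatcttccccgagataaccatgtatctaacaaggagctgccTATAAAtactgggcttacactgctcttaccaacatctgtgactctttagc
C1qb: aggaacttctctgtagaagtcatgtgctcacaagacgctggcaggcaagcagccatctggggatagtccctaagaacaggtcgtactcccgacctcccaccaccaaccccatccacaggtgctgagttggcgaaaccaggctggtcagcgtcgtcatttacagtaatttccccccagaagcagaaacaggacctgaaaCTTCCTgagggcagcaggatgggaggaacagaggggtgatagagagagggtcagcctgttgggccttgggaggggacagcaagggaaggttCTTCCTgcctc
C1qc: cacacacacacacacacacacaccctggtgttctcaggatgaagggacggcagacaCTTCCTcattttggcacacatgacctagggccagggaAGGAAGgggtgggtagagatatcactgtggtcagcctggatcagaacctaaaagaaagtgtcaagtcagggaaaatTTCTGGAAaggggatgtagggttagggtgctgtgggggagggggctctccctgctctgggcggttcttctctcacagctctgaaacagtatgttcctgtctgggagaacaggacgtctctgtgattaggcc
The S100a8 window held the TATA box letters 1 time, at position -30 from the annotated start, 2 PU.1 matches and 1 C/EBP match. The S100a9 window held the same letters 1 time, beginning at the annotated start itself and not upstream of it, and 2 C/EBP matches. The C1qb window held 2 PU.1 matches, and the C1qc window 2 PU.1 matches and 1 C/EBP match. No matches overlapped, and none of the 4 held an AP-1 or NF-kB match. Of 32851 promoter windows of 300 bases in the table, 13.6% held the TATA box letters, 35.4% the PU.1 letters, 40.7% the C/EBP letters, 7.81% the AP-1 letters and 1.63% the NF-kB letters. A match is a description of the letters and not of binding. Promoters of 487 of the 655 panel genes were found in the table.

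Vehicle 2 and, to a lesser degree, vehicle 3 stood apart from the other isolates before any gene was singled out. Among 423 genes above background, 194 (45.9%) were highest in vehicle 2 and 98 (23.2%) in vehicle 3, while 187 were lowest in vehicle 1. The first principal component held 70.0% of the variance and placed vehicle 2 at 17.2 and vehicle 3 at 9.28, with the other 4 isolates between -11.8 and -3.95. The second component held 15.2% and placed V2 at 7.12 opposite vehicle 3 at -6.36 and vehicle 1 at -5.23. When each sample was centred on its own median, vehicle 2 and vehicle 1 were highest for similar numbers of genes, 128 and 130, and vehicle 2 was the lowest for 160. Vehicle 2 and vehicle 3 kept the 2 highest scores on the first component, 14.3 and 7.22. The column headers carry 2 codes, taken here as cartridges of the instrument and called runs below. Vehicles 1, 2 and 4 belonged to the first and vehicles 3, V1 and V2 to the second, so each run held 1 of the isolates that stood apart. By lane, vehicle 3 lay beside samples of the triple combination (entinostat, anti-PD-1 and anti-CTLA-4) and a sample of that group lay between vehicles 2 and 4. The label was kept, an exchange was not tested, and values resting on vehicle 3 carry that doubt. With limma on log2 values, 0 of 423 genes differed between the runs at an adjusted p under 0.05 (0%), 10 did at an unadjusted p under 0.05, and edgeR's quasi-likelihood test called 0, with 3 unadjusted. Without vehicle 2 limma gave 27 of 415 genes at an unadjusted p under 0.05 (6.51%), with a median log2 difference of 0.27 between runs, and without vehicles 2 and 3 it gave 31 of 411, with 0 called in both. Depth was 127353 to 247892 barcode counts per sample, lowest in V2 and vehicle 3. The geometric mean of 20 housekeeping genes was level, at 174 to 185 normalized counts, while the median of all 655 genes ran from 27.45 in vehicle 1 to 51.7 in vehicle 2. Counts of every pair of isolates differed by more than sampling noise (chi-square per degree of freedom 3.67 to 77.1), and each was kept as a sample of its own. Across genes, which are not independent replicates, Pearson's r between isolates was 0.847 to 0.984.

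The transcripts of highest count in the vehicle isolates were a translation and a cytoskeletal gene. Genes that followed at far lower counts included neutrophil alarmins, an inflammatory cytokine and stress-response genes. Eef1a1, a translation elongation factor, averaged 22827 ± 2065 normalized counts (SD, n = 6) and Actb, beta-actin, 22534 ± 1807. These 2 genes gave 17.7% to 26.0% of all endogenous signal in an isolate, and the 10 highest genes 41.2% ± 2.26 (SD, n = 6). Eef1a1 or Actb held rank 1 in each isolate. The third gene, Crip1, a small LIM-domain protein, averaged 7174 ± 925. In all, 37 genes averaged over 1000 normalized counts and 191 of the 423 genes above background under 100, around a median of 119.

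S100a9 was the fourth and Il1b the fifth gene by level. Values by sample are given from here in the order vehicle 1, 2, 3, 4, V1 and V2. S100a9 read 4487, 14573, 5936, 3367, 3562 and 3347 normalized counts. Its rank ran only from 3 to 6, whereas its level in vehicle 2 was 4.35-fold that in V2, the lowest. Il1b, the gene of the inflammatory cytokine interleukin-1 beta, read 4145, 11618, 5576, 3363, 2646 and 2369, again with vehicle 2 apart from the rest and vehicle 3 second. S100a8 read 2451, 7803, 4172, 1706, 1641 and 1692, rank 5 to 22. For S100a8 and S100a9 the 3 isolates 4, V1 and V2 lay close together and below vehicle 1. The promoters of both S100 genes shown above carry the TATA box letters, at different positions, and C/EBP letters.

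The rest of the 20 highest genes were steadier as deposited. Calr, the endoplasmic reticulum chaperone calreticulin, averaged 3941 ± 506, Atf3, a stress-induced transcription factor, 3327 ± 604, and Itgb1, the beta-1 integrin chain, 2963 ± 316. Anxa1, annexin A1, averaged 2935 ± 486, S100a10 2481 ± 318, Txn1, thioredoxin, 2490.4 ± 420.4 and S100a4 2458 ± 432. Their fold between the highest and the lowest isolate was 1.34 to 1.72, against 4.35 to 4.90 for S100a9, S100a8 and Il1b. Atf3, Fosb and Jun, all products of early response genes, and Dusp1, a MAP kinase phosphatase, also stood in the top 20, with Ctnnb1, Ier3 and Sqstm1. Dusp1 was widest of these at 1954, 4485, 3240.1, 2122, 2482 and 2489.6. Ccrl2, a chemerin-binding receptor of activated myeloid cells, closed the 20 and followed the S100 genes, at 1154, 5005, 2545, 1403, 1376 and 1212. Of the 20 genes, S100a9, Il1b, S100a8 and Ccrl2 were the only ones with an SD over 0.5 on the log2 scale as deposited, and all 4 were highest in vehicle 2 and second highest in vehicle 3. They also had the 4 largest SDs of the 20 after median centring (0.58 to 0.71) and scaling to the total count (0.60 to 0.70). After quantile normalization S100a9 (0.37) and Il1b (0.38) lay below Atf3 (0.51), S100a4 (0.43), Crip1 (0.42) and Ier3 (0.39).

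**Figure D1:**
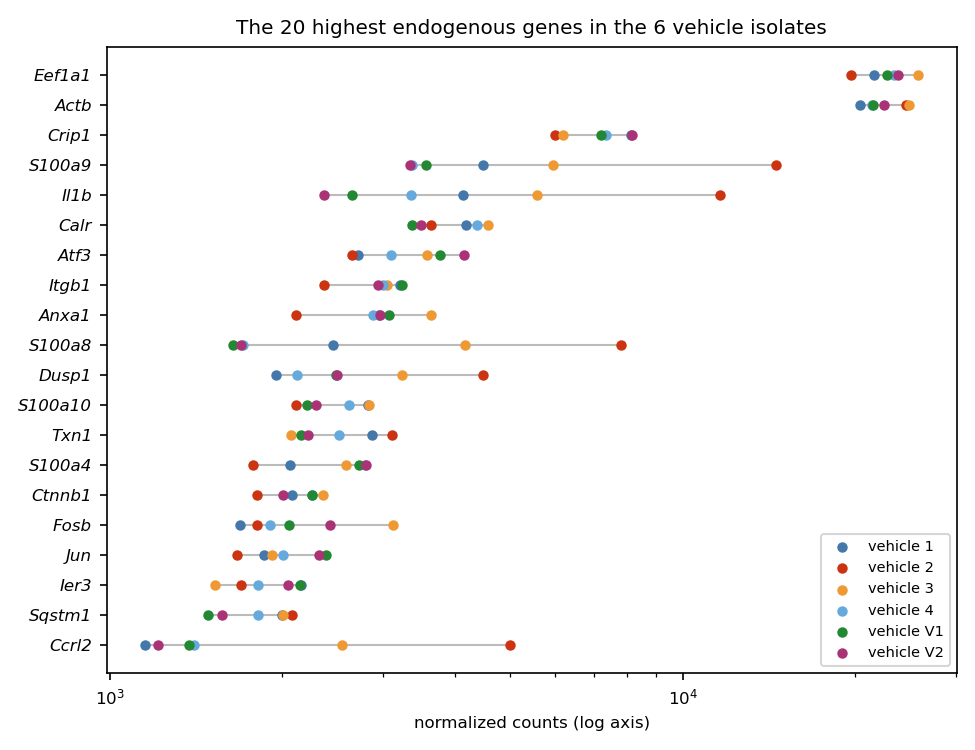
Each row is 1 of the 20 endogenous genes of highest mean level and each point 1 vehicle isolate, on a log axis of normalized counts; grey lines join the lowest and highest isolate. S100a9, Il1b, S100a8 and Ccrl2 spread over more than 4-fold with vehicle 2 at the right, and the other 16 over at most 2.30-fold.

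The label was set against marker genes. The 4 neutrophil markers named for the isolates were all above the background limit of 14.5 normalized counts, the mean plus 2 SD of the panel's negative controls. Cxcr2 read 128, 409, 175, 126, 168 and 145 and Csf3r 151, 570.1, 326, 200.2, 242 and 193. Ly6g, the antigen used for capture, read 3.54, 8.23, 3.43, 5.20, 6.99 and 6.09, below the limit in every isolate. A probe that binds poorly and a transcript that is scarce cannot be told apart from these values, and Ly6g on the panel therefore gives no check of the capture. The granule genes Camp, Elane, Mpo and Mmp8, transcribed chiefly in neutrophil precursors, also averaged below the limit, at 7.80, 10.7, 7.18 and 7.46. Mmp9, a gelatinase of late granules, was well above it at 74.4, 371, 209, 127, 157 and 157.

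The isolates also held transcripts of other cells at high counts. Cdh1, E-cadherin of epithelial cell junctions, read 1069.6, 783, 1149.8, 1065, 1253 and 1139, above Cxcr2 and Csf3r in every isolate. Lamb3, a laminin chain of epithelial basement membranes, averaged 948 ± 302 and F11r, the junction protein JAM-A, 663 ± 108. Tnc, the matrix protein tenascin-C, averaged 1666 ± 252 and Pdgfra, a growth factor receptor of mesenchymal cells, 314 ± 56.5. Top2a, the topoisomerase of dividing cells, averaged 437 ± 69.6. These are bulk RNA values, in which fewer cells of a type and less RNA per cell cannot be told apart, and the part of non-neutrophil cells in any level below was not tested.

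**Figure D2:**
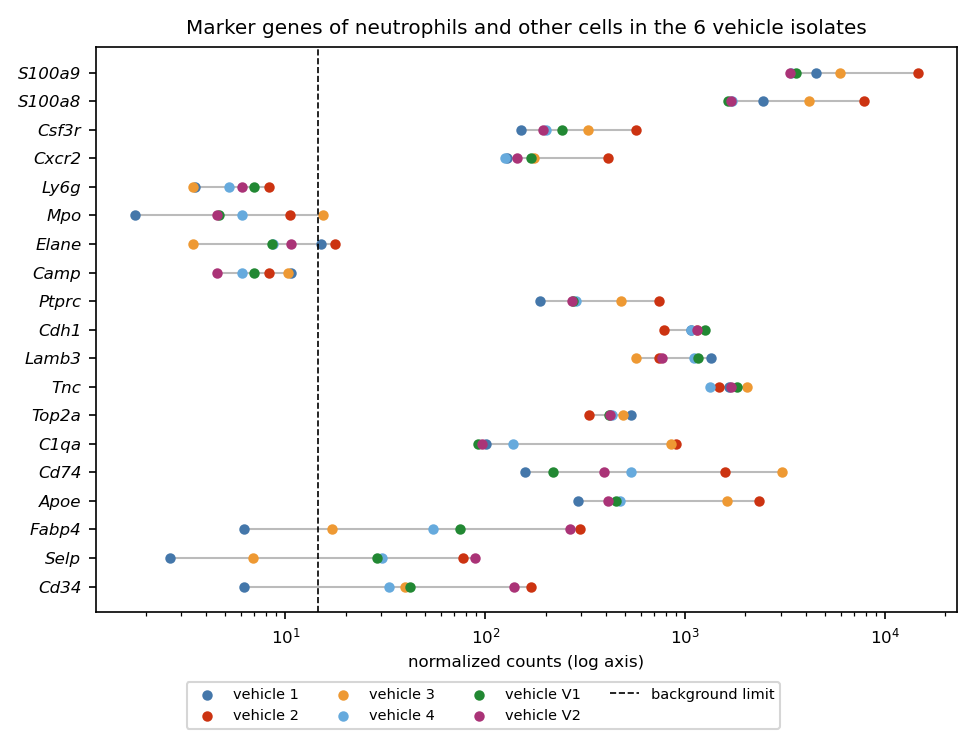
Each row is a marker gene of neutrophils or of another cell type, each point 1 vehicle isolate on a log axis of normalized counts, and the dashed line is the background limit of 14.5. Ly6g lies left of the line in all 6 isolates, while Cdh1 and Tnc lie far right of it with little spread and Fabp4, Selp and Cd34 spread widest.

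Of 17 neutrophil genes on the panel, 12 were above background, against 64.6% of all panel genes. All 12 were highest in vehicle 2, against 45.9% of all genes above background. Trem1, a receptor that amplifies inflammatory signals, ran from 126 (lowest) through 166 (median) to 557 (highest) and Itgam, the integrin CD11b, from 64.6 (lowest) through 98.1 (median) to 281 (highest). Fpr2, a formyl peptide receptor, ran from 39.9 (lowest) through 53.0 (median) to 209 (highest). The median SD of the 12 genes was 0.83, against 0.41 over all 423 genes above background, and 12 of 12 exceeded that overall median. Their mean log2 level was 8.87 in vehicle 2, 8.02 in vehicle 3 and 6.87 to 7.18 in the other 4. This order put vehicle 2 first under the deposited scaling, median centring, quantile normalization and scaling to each sample's total count.

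The general leukocyte genes followed the same isolates. All 9 on the panel were above background, 8 of them were highest in vehicle 2 and 8 lowest in vehicle 1. Across the panel 64.6% of genes were above background. Of these 423 genes 45.9% were highest in vehicle 2 and 187 were lowest in vehicle 1. Ptprc, the CD45 antigen of all leukocytes, read 187, 739, 477, 284, 275 and 271. Tyrobp, the signalling adaptor DAP12, read 336, 1512, 1019, 458, 439 and 384. The median SD of the 9 leukocyte genes was 0.84. Cdh1, Met and Areg, the 3 epithelial genes of the list drawn up first that were on the panel, were all lowest in vehicle 2. Among all 423 genes above background 67 were lowest in vehicle 2. The mean of the 3 epithelial genes was highest in vehicle 3 as deposited, at 8.82 on the log2 scale. Met, the hepatocyte growth factor receptor, read 151, 98.7, 166, 159, 176 and 157, with the other 5 isolates close together above vehicle 2. In a wider list of 10 epithelial genes, written after the panel and some values had been seen, 5 were lowest in vehicle 2 and 3 in vehicle 1, and their median SD was 0.29. The 4 mitotic genes Top2a, Ccnb2, Cdc20 and Birc5 were also all lowest in vehicle 2, with a median SD of 0.18. The list means of epithelial and mitotic genes were lowest in vehicle 2 under all 4 scalings.

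Differences between genes within 1 isolate do not depend on a factor applied to the whole isolate, although quantile normalization, which reshapes each isolate, does change them. S100a9 exceeded Cdh1 by 4.22 on the log2 scale in vehicle 2, by 2.37 in vehicle 3 and by 1.51 to 2.07 in the other 4. Ptprc lay 0.082 below Cdh1 in vehicle 2, a log2 difference of -0.082, and the difference was -1.27 in vehicle 3 and -2.52 to -1.91 in the rest. The leukocyte genes were thus highest relative to Cdh1 in vehicle 2, with vehicle 3 next for both genes. Within the neutrophil genes the ratios were steadier. S100a9 exceeded S100a8 by 0.51 to 1.12 on the log2 scale, least in vehicle 3. Il1b minus S100a9 lay between -0.50 and -0.0019. Csf3r minus S100a9 ran from -4.89 in vehicle 1 to -3.88 in V1, so the ratio of the G-CSF receptor to the alarmin moved by 1.01 while S100a9 itself moved by more.

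S100a9 was also compared with 8 fixed measures over the 6 isolates by an exact permutation test, two-sided. Pearson's r with S100a8 was 0.977 (exact p = 0.00694, adjusted over the 8 relations 0.0556) and Spearman's rho 0.829 (exact p = 0.0583). Without vehicles 2 and 3, the isolates farthest from the median, r was 0.958. For Cxcr2, r was 0.931 (exact p = 0.0306, adjusted 0.0694) with rho 0.714 (exact p = 0.136). Without the same isolates it was -0.297, so that relation rests on them. Csf3r gave r = 0.881 (exact p = 0.0347, adjusted 0.0694), rho = 0.657 (exact p = 0.175) and -0.736 without them. Ptprc gave r = 0.851 (exact p = 0.0292, adjusted 0.0694), rho = 0.600 (exact p = 0.242) and -0.977 without them. Cdh1 gave r = -0.864 (exact p = 0.0972, adjusted 0.130) and rho = -0.257 (exact p = 0.658), and Csf1r r = 0.803 (exact p = 0.0514, adjusted 0.0822) and rho = 0.657 (exact p = 0.175). Without vehicles 2 and 3 these became -0.311 and -0.901. Vegfa gave r = 0.327 (exact p = 0.572, adjusted 0.654) and the total barcode count r = 0.165 (exact p = 0.808, adjusted 0.808), with rho of 0.257 (exact p = 0.658) and 0.314 (exact p = 0.564) and, without the same isolates, r of -0.651 and 0.282. The values without 2 isolates depended on the scaling. After median centring vehicles 1 and 2 were the farthest, and without them r was 0.814 for Csf3r, 0.969 for Ptprc and 0.982 for Csf1r. S100a8 kept an r of 0.939 there and after scaling to the total count. None of the 8 relations passed 0.05 after adjustment. Each run held 3 isolates, too few for a correlation within runs.

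Spread between isolates differed widely between genes. The SD of log2(normalized count + 1) over the 6 isolates had a median of 0.41 and quartiles of 0.24 and 0.75, and ran from 0.058 to 2.12. For 275 of the 423 genes (65.0%) it was over 2 times the SD that counting error alone would give, and for 95 it was under 1.5 times. The 20 housekeeping genes had a median SD of 0.20. An SD over 1 was found for 43 genes (10.2%). Without vehicle 2 alone the count was 20, and without vehicle 3 alone 42. In 33 of the 43 the highest isolate was vehicle 2, in 9 vehicle 3 and in 1 V2. Without vehicles 2 and 3, an alternative added after seeing the data, the median SD was 0.26 and 7 genes exceeded 1, of which 6 were among the 43.

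**Figure D3:**
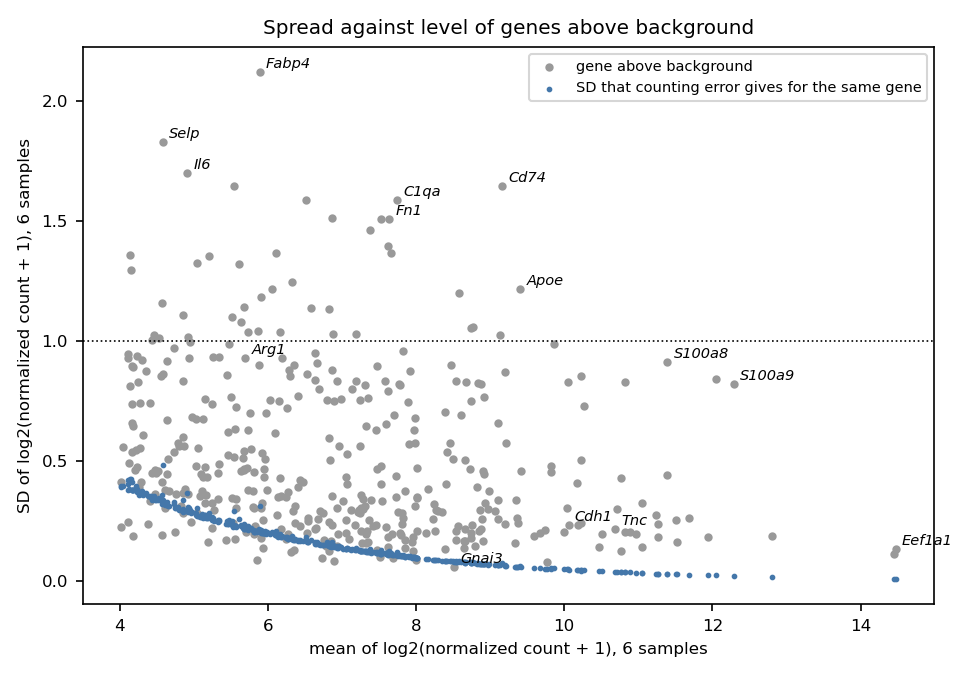
Each grey point is 1 of 423 genes above background, with its mean log2 level on the x axis and its SD over the 6 vehicle isolates on the y axis; blue points give the SD from counting error and the dotted line an SD of 1. Fabp4, Selp, Il6 and Cd74 lie highest, Eef1a1 lies low at the right end, and the S100 genes have high level and an SD of 0.82 and 0.91.

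The 43 genes fell into 2 patterns by the isolates in which they were highest. For 34 genes the 2 highest isolates were vehicles 2 and 3, a pair that was highest for 43.0% of all 423 genes. For 9 genes they were vehicles 2 and V2, the pair for 8.27% of all genes. After each of the other 3 scalings 33 of the 43 genes had vehicles 2 and 3 as the highest pair, 9 vehicles 2 and V2, and 1 vehicles 2 and 4.

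The first pattern held 34 of all 423 genes above background. It included 8 of the 12 monocyte and macrophage genes above background and 6 of the 7 CC chemokines. It also included 4 of the 12 antigen presentation genes and 4 of the 8 complement genes, with some genes on more than 1 list. Trem2 of the macrophage list, Ccl6 and Ccl12 passed the background limit only through vehicles 2 and 3, which fixed their place. The pattern also held Col1a2, Icam1, Itgal, Lag3, Osm, Nlrp3, Rgs1, Mmp12, Acod1 and others of different roles. C1qa, C1qb and C1qc encode the chains of C1q, which starts the classical complement pathway and is produced by macrophages. C1qa read 101, 900.4, 853, 137, 91.6 and 95.9, C1qb 99.2, 865, 513, 139, 91.6 and 120.3 and C1qc 80.6, 651, 561, 114, 70.7 and 85.3. Vehicles 2 and 3 lay several-fold above the other 4 isolates, which overlapped one another and varied little among themselves. Without vehicles 2 and 3 the SD of C1qa was 0.26, against 1.59 with all 6. The log2 difference between C1qb and C1qc, whose promoters are shown above, ran from -0.13 to 0.50, so these neighbours on chromosome 4 stayed within 0.63 of each other while each moved over more than 9-fold. The difference between C1qa and C1qb ran wider, from -0.33 in V2 to 0.73 in vehicle 3.

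Cd74, the invariant chain that escorts MHC class II, read 158, 1577, 3034, 536, 219 and 393. H2-Ab1, a class II beta chain, read 44.3, 463, 784, 173, 90.1 and 149. Both were highest in vehicle 3 and not in vehicle 2, and vehicle 4 followed vehicles 2 and 3. The log2 difference between Cd74 and S100a9 ran from -4.82 in vehicle 1 to -0.97 in vehicle 3, so class II transcripts did not keep step with the alarmin. Fn1, fibronectin, read 80.6, 575, 969.6, 112, 116 and 102 and was also highest in vehicle 3. Apoe, the lipid carrier apolipoprotein E, had the highest level among the macrophage genes at 291, 2347, 1611, 471, 449.6 and 411. Mrc1, the mannose receptor, ran from 14.2 (lowest) through 24.2 (median) to 154 (highest) and Fcgr2b, the inhibitory Fc receptor, from 85.0 (lowest) through 118 (median) to 726 (highest).

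Chemokine and activation genes completed this pattern. Ccl8, a monocyte attractant, read 37.2, 597, 173, 32.9, 48.9 and 85.3, with vehicle 2 more than 3-fold above vehicle 3 and the lowest value in vehicle 4. Ccl9 ran from 34.5 (lowest) through 59.9 (median) to 309 (highest), Ccl6 from 6.93 (lowest) through 9.62 (median) to 61.1 (highest) and Ccl12 from 7.61 (lowest) through 11.1 (median) to 74.0 (highest). Cd83, a surface protein of activated antigen-presenting cells, read 61.1, 441, 436, 88.4, 43.5 and 53.3. Cybb, the catalytic subunit of the phagocyte oxidase, read 22.1, 132, 165, 42.5, 34.2 and 16.8, highest in vehicle 3 and lowest in V2. C3ar1, the C3a receptor, ran from 32.0 (lowest) through 41.6 (median) to 241 (highest). Cd274, the checkpoint ligand PD-L1, had an SD of 1.13 and read 53.1, 423, 190.5, 95.3, 81.5 and 59.4.

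The second pattern held Fabp4, Selp, Cd34, Cdh5, Sele, Col15a1, Col3a1, Il6 and Gem. Of these, Selp and Il6 passed the background limit only through vehicles 2 and V2, which fixed their place. Cdh5, Selp and Sele are an adhesion molecule and selectins of endothelial cells, Cd34 marks endothelium and progenitors, and Fabp4 is a fatty acid binding protein of adipocytes and capillaries. Fabp4 read 6.20, 296, 17.2, 54.6, 74.5 and 266, the widest spread of the 423 genes. Selp read 2.66, 77.6, 6.86, 30.3, 28.7 and 88.3, with vehicles 1 and 3 under the background limit. Cd34 read 6.20, 169, 39.5, 32.9, 41.9 and 139 and Il6, interleukin-6, 4.43, 118, 18.9, 18.2, 25.6 and 111. For each of these 4 genes vehicle 1 was lowest, and the third highest isolate lay far below vehicle 2 and V2. Their spread did not rest on vehicles 2 and 3, since without them the SD was 2.16 for Fabp4, 1.93 for Selp, 1.76 for Cd34 and 1.80 for Il6. Selp minus S100a9 ran from -10.7 in vehicle 1 to -5.24 in V2 on the log2 scale, and Fabp4 minus Cdh1 from -7.43 in vehicle 1 to -1.40 in vehicle 2. Vehicle 1 read below the background limit for Fabp4, Selp, Cd34 and Il6, so the low ends of these ranges are bounds set by background and no size of the full range is read from them.

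**Figure D4:**
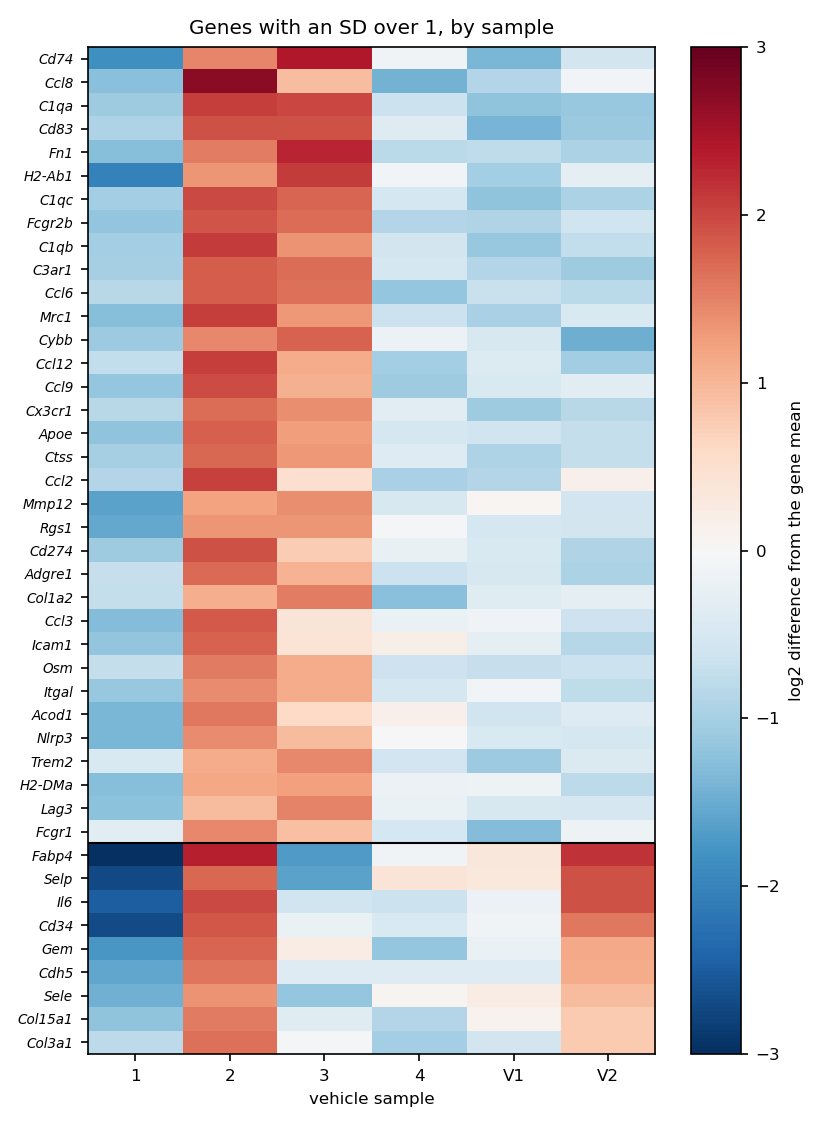
Rows are the 43 genes with an SD over 1, columns the 6 vehicle isolates, and colour the log2 difference from the gene's mean; the black line parts the 34 genes highest in vehicles 2 and 3 from the 9 highest in vehicles 2 and V2. Vehicle 1 is among the lowest in both blocks, and Fabp4 and Selp are low in vehicle 3.

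How many genes passed an SD of 1 depended on the scaling. Of the 43 genes, 20 also exceeded 1 after median centring, 19 after quantile normalization and 23 after scaling to the total count. Of the 20 genes of largest SD, 19, 19 and 18 stayed among the 20 of largest SD under these scalings. Under all 4 scalings 19 genes exceeded 1, led by Fabp4 (1.95 to 2.12), Selp (1.47 to 1.91), Il6 (1.42 to 1.70), Cd34 (1.38 to 1.64), Cd74 (1.37 to 1.65) and C1qa (1.29 to 1.59). Selp and Il6 passed the background limit only through vehicles 2 and V2, so the filter fixed their place here.

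The lists differed in the order of the isolates, although many shared vehicles 2 and 3 at the top. Of 16 monocyte and macrophage genes on the panel 12 were above background, with a median SD of 1.16, and 9 were highest in vehicle 2. Ccr2, the receptor of inflammatory monocytes, and Marco, Siglec1 and Timd4, markers of resident macrophages, were not above background. The mean log2 level of the list was 7.98 in vehicle 2, 7.58 in vehicle 3 and 5.61 to 6.01 in the others. Csf1r, the receptor for M-CSF, read 126, 388, 371, 166, 169 and 155 and Adgre1, the F4/80 antigen, 27.4, 149, 94.4, 28.6, 31.8 and 22.8. Complement genes (8 of 8 above background, median SD 1.15) and CC chemokines (7 of 15, median SD 1.25) had the same highest isolate, vehicle 2, in 7 of 8 and 7 of 7 genes. Ccl6 and Ccl12 passed the background limit only through vehicles 2 and 3, which fixed their place. The other 5 CC chemokines were above the limit without these isolates. The 8 Fc receptor and phagocytosis genes had a median SD of 0.82 and were highest in vehicle 2 in 7 of 8. Across the panel 64.6% of genes were above background, and of these 45.9% were highest in vehicle 2.

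Endothelial genes (5 of 6 above background, median SD 1.11) were lowest in vehicle 1 in 5 of 5. Over the whole panel 64.6% of genes were above background, and of these 423 genes 187 were lowest in vehicle 1. The mean log2 level of the endothelial list was 3.58 in vehicle 1, 4.55 in vehicle 3, 5.02 in vehicle 4, 5.18 in V1, 6.11 in V2 and 6.15 in vehicle 2. The value of vehicle 1 lay below the background limit of 3.96, so it is a bound set by background. Selp, a member of this list, passed the limit only through vehicles 2 and V2. The first place belonged to vehicle 2 as deposited and to V2 after the other 3 scalings. Flt1, a VEGF receptor, read 77.0, 107, 130.4, 130.0, 199 and 203 and was highest in V1 and V2. Fibroblast and matrix genes (7 of 8 above background, median SD 0.30) split into steady and variable members. Tnc and Col4a1, a basement membrane collagen, had an SD of 0.22 and 0.22, and Col1a2 and Col3a1, fibrillar collagens, 1.08 and 1.03. Col1a2 was highest in vehicle 3 (29.2, 106, 142, 19.9, 38.0 and 39.6) and Col3a1 in vehicles 2 and V2 (67.3, 368, 112, 57.2, 79.2 and 203).

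Other cell types left few transcripts. Across the panel 64.6% of genes were above background. Of 10 dendritic cell genes 4 were above background (Itgax, Batf3, Fscn1 and Cd83), and the defining genes Flt3, Xcr1 and Clec9a were not. Of 5 lymphocyte genes only Gata3, which mammary epithelial cells also express, was above background, at 149.6, 95.2, 91.0, 159, 161 and 172. It was lowest in vehicles 2 and 3, against the order of the leukocyte genes. Ms4a1, the CD20 antigen of B cells, averaged 3.88. Of 11 mast cell, eosinophil and basophil genes, Siglecf and Hdc were above background and Kit, Fcer1a, Cpa3, Epx and Prg2 were among the 9 that were not. Siglecf, a lectin of eosinophils that some tumour neutrophils also carry, read 165, 401, 252, 155, 182 and 107. Hdc, the histamine-forming enzyme, read 54.9, 304, 178, 96.2, 77.6 and 107.

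The suppressive effector genes were mostly measurable. Of 17 on the panel 14 were above background, against 64.6% of all panel genes. Their median SD was 0.82, and 11 of the 14 were highest in vehicle 2, against 45.9% of all genes above background. Ptgs2, the inducible cyclooxygenase that makes prostaglandin precursors, was the highest of the 14 after the S100 genes at 862, 2732, 1642, 789, 771 and 592. Arg1, arginase, read 23.0, 116, 99.5, 29.5, 55.9 and 38.1, high in vehicles 2 and 3. Nos2, the inducible nitric oxide synthase, read 11.5, 14.1, 30.9, 11.3, 16.3 and 41.1, highest in V2, and vehicles 1, 2 and 4 lay under the limit. Il10 and Ido1 were not above background, at means of 11.6 and 5.20, nor was Pdcd1lg2. Stat3, the transcription factor downstream of interleukin-6 and G-CSF, was the steadiest of the 14 with an SD of 0.16 and a mean of 647 ± 73.5. Tgfb1 averaged 270.3 ± 94.4 and was high in vehicles 2 and 3, and Vegfa averaged 259 ± 35.6.

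The genes induced by NF-kB and TNF ran from Tnfaip6 at a mean of 18.3 to Il1b, around a median of 205. Of 29 listed genes on the panel 25 were above background, 20 of them highest in vehicle 2 and 16 lowest in vehicle 1, with a median SD of 0.75. Across the panel 64.6% of genes were above background. Of these 423 genes 45.9% were highest in vehicle 2 and 187 were lowest in vehicle 1. Cxcl1 and Cxcl2, ligands of Cxcr2, read 1589, 3022, 1259.7, 1876, 1661 and 1503 and 763, 3807, 1009, 1107, 1181 and 784. Cxcl2 in vehicle 2 was more than 3-fold above any other isolate. Tnfaip3, the feedback inhibitor A20, read 685, 2956, 1557, 1016, 1117 and 962 and Tnf 214, 1182, 618, 443, 362 and 423. Nfkb1 itself, the precursor of the p50 subunit, had an SD of only 0.20, the smallest of the list. The neutrophil-attracting chemokine list (7 of 9 above background) had a median SD of 0.58, and Cxcl5 (21.7) and Csf3, the gene of G-CSF (86.8), were not highest in vehicle 2.

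The antigen presentation list was highest on average in vehicle 3, and so was the interferon response list with Mx1 counted. Of 11 interferon genes 7 were above background, 4 highest in vehicle 2 and 3 in vehicle 3, with a median SD of 0.38. Over the whole panel 64.6% of genes were above background, and of these 45.9% were highest in vehicle 2 and 23.2% in vehicle 3. Mx1, an antiviral GTPase, read 10.6, 14.1, 60.1, 12.1, 12.4 and 18.3, and Psmb8, an immunoproteasome subunit, 282, 334, 479, 287, 289 and 312. In both genes vehicle 3 was alone at the top, and Mx1 passed the background limit only through vehicle 3. The 12 antigen presentation genes were all above background with a median SD of 0.60, and ranged from Tap2, a peptide transporter with an SD of 0.099, to Cd74. The means of both lists were highest in vehicle 3 under all 4 scalings. The interferon mean includes Mx1, which the filter kept only through vehicle 3, and was not taken without it. No order of isolates is therefore read from the interferon list. Toll-like receptor and adaptor genes (9 of 14 above background) had a median SD of 0.52, with Nlrp3, the inflammasome sensor, highest at 217, 1502, 1085, 556, 413 and 391.

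Of the immediate early and stress genes, all 15 on the panel had a mean above background, against 64.6% of all panel genes. Gem, the lowest, read 8.85, 109, 37.8, 13.9, 27.9 and 71.6, under the limit in vehicles 1 and 4, and Fosl1 averaged 52.7. The list had a median SD of 0.43, from Jun at 0.20 to Gem at 1.33. Atf3 read 2712, 2649, 3579.9, 3103, 3767 and 4151 and was lowest in vehicles 1 and 2, and Dusp2, another MAP kinase phosphatase, read 298, 1271, 587, 416, 418 and 318 and was highest in vehicle 2. The list mean was highest in vehicle 2 as deposited, in V1 after median centring and in V2 after quantile normalization or scaling to the total count, so no order of isolates is given for it. Hypoxia genes (2 of 3 above background) had a median SD of 0.22, and their order also turned with the scaling.

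**Figure D5:**
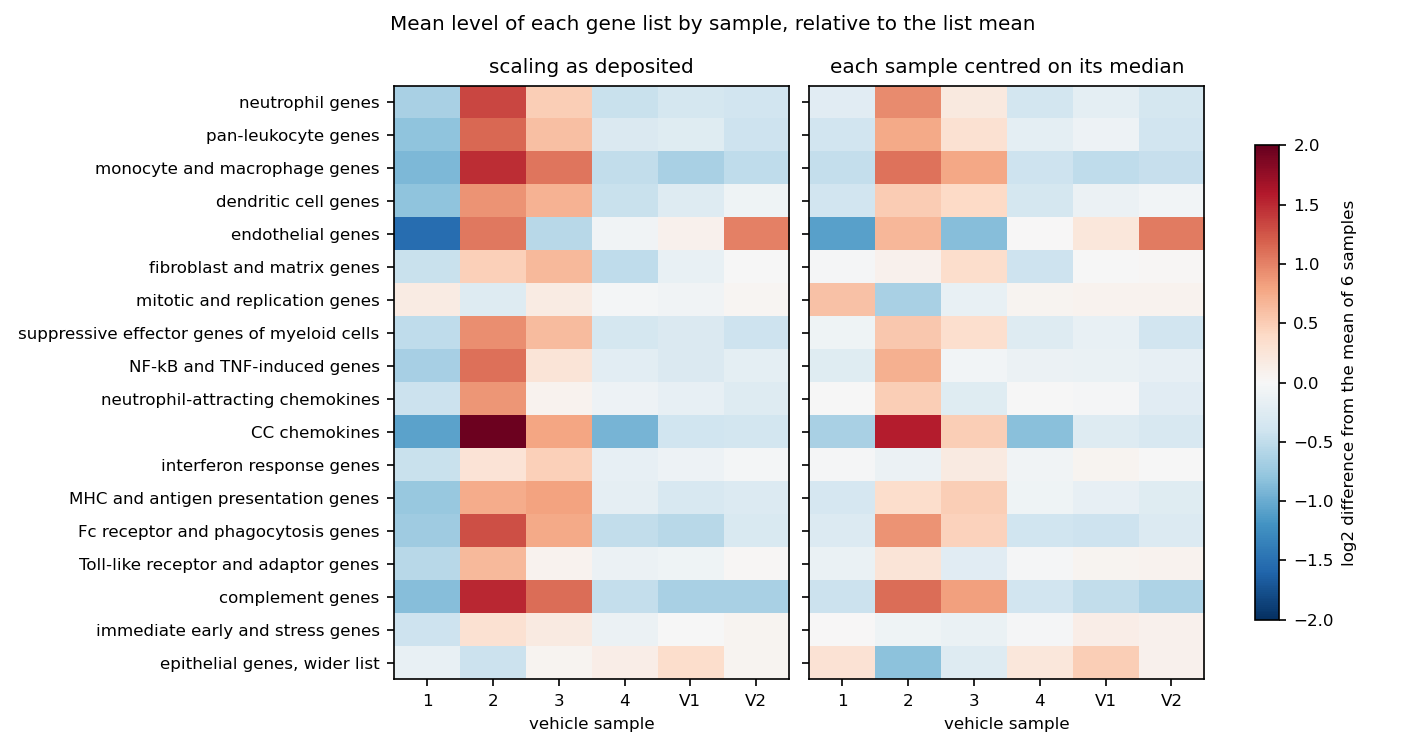
Rows are gene lists, columns the 6 vehicle isolates, and colour the difference of a list's mean log2 level from its mean over the isolates, as deposited on the left and after median centring on the right. Neutrophil, macrophage, CC chemokine and complement lists are highest in vehicle 2 in both panels, while the endothelial list is lowest in vehicle 1 and moves from vehicle 2 to V2 as the highest.

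The steadiest genes as deposited were signalling and chromatin genes of middle level. Gnai3, a G protein alpha subunit, had the smallest SD at 0.058 and read 365, 361, 379, 377, 370.4 and 339.6. Hist1h1c, a linker histone, had an SD of 0.081 around 876 ± 48.1, and Traf2, an adaptor of TNF receptors, 0.085 around 118 ± 6.75. Map2k2 and Map2k1, kinases of the ERK pathway, had 0.087 and 0.13, and Hras, upstream in the same pathway, 0.097. Others of the 20 were Adamts9, Pfdn6, Tap2, Actb, Birc5, Ets1, Hist2h2aa1, Eef1a1, Pdgfa, Anxa4 and Tep1. The spread of Gnai3 and Traf2 was below the 0.081 and 0.14 that counting error would give, so their differences between isolates were not detectable at this depth.

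Which genes were steadiest depended on the scaling. Of the 20 steadiest genes 0 were among the 20 steadiest after median centring, 2 after quantile normalization and 1 after scaling to the total count. An SD under 0.3 under all 4 scalings was found for 38 genes. The genes whose largest SD over the 4 scalings was smallest were Tnfrsf1a, a TNF receptor (0.083 to 0.17), Pdgfb (0.11 to 0.17), Actb (0.051 to 0.19), Nfkb1 (0.13 to 0.20), Tnfaip8 (0.13 to 0.20) and Furin, a proprotein convertase (0.095 to 0.21). Tnfrsf1a read 355, 469, 459.9, 370.1, 379.7 and 396 normalized counts.

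Part of the panel was not measurable here, since 232 of 655 genes had a mean at or below the background limit. Negative controls held 1 to 13 counts per probe and averaged 4.66 to 7.04 on the normalized scale. The number of genes above an isolate's own limit ran from 418 in vehicle 1 to 488 in vehicle 2. A gene such as Ccl6, at 8.85, 61.1, 54.9, 6.93, 10.1 and 9.14, passed the limit through vehicles 2 and 3 alone and had to be variable. Of the 43 genes with an SD over 1 this was so for 4 of the first pattern, Ccl6, Ccl12, Fcgr1 and Trem2. The other 39 passed without vehicles 2 and 3, against a limit taken anew from the negative controls of the 4 isolates left. Without vehicles 2 and 3, Lag3 averaged 3.92 on the log2 scale, below the limit of 3.96 from all 6. The limit was not taken anew without vehicles 2 and V2. In the other 4 isolates Selp and Il6 averaged below the limit of 3.96 on the log2 scale, Il6 only narrowly. These genes passed through that pair, which fixed their place in the second pattern. Whether further members of the second pattern passed in the same way was not checked.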

How the data were processed

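RNA of 6 vehicle isolates was counted on the NanoString nCounter mouse myeloid panel, with hybridization at 65 °C for 18 h per the labels' protocols. The authors deposited a linear signal, normalized counts. How they normalized is not given in the sources used here. Limma is named, with no version or role, per the submitters' processing notes. Values of 655 endogenous and 20 housekeeping genes were, up to 200, whole multiples of 1 step per sample (100% within 0.1), from 0.776 to 1.72, and dividing by it gave barcode counts. Control rows held unscaled counts, so negative controls were multiplied by the step. A housekeeping scaling, if used, would let any housekeeping difference shift every gene. No gene value lay below 1, and 47 lay at 1.

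Levels were log2(normalized count + 1), without background subtraction. A gene counted as above background when its mean exceeded the mean + 2 SD of the log2 negative controls. The runs were compared with limma 3.58.1 and edgeR 4.0.16 in R 4.3.3 (Benjamini-Hochberg, two-sided), checked on simulated data. Named genes were the 20 highest, 20 most and 20 least variable, 13 fixed genes, and of each list the 4 highest and the least and most variable. Genes mentioned beyond these were taken from the lists, from the tables of genes steady or variable under every scaling and from the first genes of the 43, after their values were seen. Members and lists were chosen with earlier results of these data known. Of 655 symbols, 645 were found in the RefSeq table. The 16 columns of other groups were not used. Some genes that the rule names are left out of the text.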

Additional observations from a re-analysis of the deposited data

Results flagged for a closer look

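Within the 6 isolates, 8 of 123 named genes above background and 2 of 23 gene lists had 1 isolate far from the other 5, by the gap to its neighbour as a share of the whole range of log2 values. A share above Dixon's critical value for 6 samples was taken as far, which chance gives for about 1 in 20 groups, and over all genes above background 25 of 423 (5.91%) exceeded it. The share among named genes is thus near that of all genes and of chance. Vehicle 2 was highest for Cxcl2, a ligand of Cxcr2 (0.728), for Cxcr2 (0.720) and for the neutrophil-attracting chemokine list (0.626). Vehicle 2 was lowest for Met (0.737), Pdgfra (0.712), the beta-1 integrin gene Itgb1 (0.692), Cdh1 (0.655) and the epithelial list of 3 genes (0.699). Vehicle 3 was highest for the antiviral gene Mx1 (0.696) and the immunoproteasome gene Psmb8 (0.680), and Mx1 passed the background limit only through vehicle 3, so its place was fixed by the filter. Among all 25 genes, vehicle 2 was the far isolate as the highest in 7 and as the lowest in 9.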

How the results depend on the processing

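The 20 genes of highest level shared 18 to 20 members with the deposited ranking under each alternative that ranks levels, and no run difference was called under any alternative run. The count of 43 genes with an SD over 1 was 20 after median centring, 19 after quantile normalization, 22 after scaling to the total count (of 415 genes that then passed the limit, against 23 of the 423 used above), 27 with a pseudocount of 10, 96 after background subtraction, 69 with no filter on low values, 26 with at least 20 counts in every sample, 85 without V1 and V2, 107 in run 1 alone, and 7 without vehicles 2 and 3. Of the 20 steadiest genes 0, 2 and 1 were shared after centring, quantile normalization and total-count scaling, 11 without V1 and V2, 7 in run 1, 3 in run 2, 6 without vehicles 2 and 3 and 6 by median absolute deviation. Of the 20 most variable, 10 were shared after background subtraction, 7 without vehicles 2 and 3, 13 when each gene had to exceed each sample's own limit, 11 with at least 20 counts and 10 by median absolute deviation. The median SD without vehicles 2 and 3 was 0.26. Pearson's r of S100a9 with Vegfa turned to -0.54 after centring (exact permutation, adjusted p = 0.319) and -0.70 after total-count scaling (exact permutation, adjusted p = 0.183). Causes were not tested. Leaving out 1 isolate at a time gave 415 to 432 genes above background, 20 to 60 genes with an SD over 1 (20 without vehicle 2), a median SD of 0.34 to 0.45, a share of the 10 highest genes of 40.5% to 42.1%, 18 to 20, 16 to 20 and 11 to 16 shared of the highest, most variable and steadiest 20, and 0 to 0 run calls. Of 1735 mean levels of named genes under an alternative, 17 moved by 1 SD or more, and of 1859 SDs 367 changed by over 1.5 times. No paired analysis was possible because only 1 group was described. Some alternatives, such as leaving out vehicles 2 and 3 together, were chosen after seeing the data. At 127353 counts, the lowest depth, genes near 14.5 normalized counts rest on few barcodes.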
